A study of Mus musculus with 14 samples.

Results

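Cytotoxic lymphocytes kill through secreted granules and through Fas ligand, and 6 mouse genes of these routes, Gzma, Gzmb, Prf1, Cst7, Ctsw and Fasl, were followed in 14 transplanted hearts. Members were the probe sets annotated to these genes by current symbol or older synonym, which gave 1 probe set per gene and so 6 of the 8251 genes named by a probe set of 1 gene. All 6 passed the filter on low signals and were among the 10395 probe sets tested.

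Each heart was measured on 1 MG-U74Av2 oligonucleotide array, which gives a signal intensity per probe set. Rejecting allografts at day 7 (n = 3) were Balb/c hearts in C57/BL6 recipients, with no antibody in the labels. Tolerizing allografts were Balb/c hearts in C57/BL6 recipients that received anti CD80/86 mAb, antibodies against the costimulatory ligands of T cells, and were taken at day 7 (n = 3) or day 70 (n = 3). Isografts were C57/BL6 hearts in C57/BL6 recipients, taken at day 7 (n = 3) or day 70 (n = 2). Recipients were thus of 1 strain in all 5 groups, and donor strain and alloimmune response cannot be told apart in any comparison of an allograft with an isograft. Age, sex, antibody dose and whether hearts of a group came from separate operations are not in the labels used here, so p-values measure the spread between these hearts. Arrays are numbered as in the labels.

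In a cytotoxic T cell or natural killer (NK) cell, perforin opens the target membrane for granzymes, serine proteases that start cell death from within. Granzymes are made as precursors that the lysosomal protease cathepsin C processes to active enzymes, and cystatin F restrains that protease. Fas ligand instead binds the death receptor Fas on the target surface. In rejecting heart allografts these products are textbook markers of infiltrating effector lymphocytes.

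In the GRCm38.p6 annotation of RefSeq, all 6 members are protein-coding genes. Gzmb (probe set 102877_at) lies at chr14:56258836-56262334, Gzma (102995_s_at) at chr13:113093824-113100981 and Prf1 (93931_at) at chr10:61297751-61304684. Cst7 (102638_at) lies at chr2:150570415-150578944, Ctsw (92214_at) at chr19:5465043-5468628 and Fasl (97113_at) at chr1:161780691-161788495. The position of the probes within the transcripts was not analysed here. The ending of the Gzma probe set marks, in the manufacturer's naming, probes that can be shared by similar transcripts, so its signal is uncertain in that respect.

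RefSeq promoter sequences were at hand for 5 members, all but Ctsw. The following 4 are the 250 bases upstream of RefSeq's start site, for Prf1 the 165 of them outside the annotated gene, of the members that hold the Runx core TGTGGT, searched on both strands. They are shown because Runx factors are known regulators of cytotoxic lymphocyte genes. These 4 genes, on 4 chromosomes, were all called higher in rejecting allografts than in isografts, and so was Ctsw, whose promoter was not searched. Whether Runx factors had a part in these differences was not tested. The Runx core, or its reverse complement ACCACA, is in capitals. The coordinates, on GRCm38.p6, are chr14:56262335-56262584 on the minus strand for Gzmb, chr13:113100982-113101231 on the minus strand for Gzma, chr10:61297586-61297750 on the plus strand for Prf1 and chr2:150570165-150570414 on the plus strand for Cst7.
Gzmb: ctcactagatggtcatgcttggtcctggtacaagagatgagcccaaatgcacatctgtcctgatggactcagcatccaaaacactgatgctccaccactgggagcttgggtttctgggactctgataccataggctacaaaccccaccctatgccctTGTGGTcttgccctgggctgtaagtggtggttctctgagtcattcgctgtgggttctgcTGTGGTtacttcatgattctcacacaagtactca
Gzma: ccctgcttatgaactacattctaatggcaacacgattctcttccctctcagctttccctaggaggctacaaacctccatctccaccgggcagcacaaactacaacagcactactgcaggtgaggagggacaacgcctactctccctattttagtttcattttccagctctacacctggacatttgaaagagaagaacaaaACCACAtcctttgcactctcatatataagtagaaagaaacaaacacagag
Prf1: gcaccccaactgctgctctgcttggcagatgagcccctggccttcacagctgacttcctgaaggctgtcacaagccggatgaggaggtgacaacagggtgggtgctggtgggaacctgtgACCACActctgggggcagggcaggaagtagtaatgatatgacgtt
Cst7: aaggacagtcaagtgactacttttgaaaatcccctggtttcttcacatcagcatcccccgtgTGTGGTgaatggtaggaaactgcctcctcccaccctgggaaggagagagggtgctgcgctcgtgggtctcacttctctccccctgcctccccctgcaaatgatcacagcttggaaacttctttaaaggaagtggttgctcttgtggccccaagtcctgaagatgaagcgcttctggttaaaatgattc

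The matches began 93 and 34 bases upstream of the Gzmb start site, 50 bases upstream in Gzma, 130 in Prf1 and 188 in Cst7. No match was found in the same stretch of Fasl. Of 32851 mouse promoters of that length, 14% held the Runx core at least once and 1.27% held it more than once, as Gzmb did. In windows that add 50 bases after the start site, the NFAT core GGAAA stood in 3 of the 5 members (Gzma, Cst7 and Fasl), against 61.3% of all promoters. The AP-1 motif TGANTCA stood in 2 of the 5 (Gzmb and Cst7), against 7.8% of all promoters. The T-box letters AGGTGTGA, the CRE letters TGACGTCA and the TATA letters TATAAA stood in none of the 5 windows, against 1.3%, 1.8% and 13.6% of all promoters. Such matches describe the letters only, and no binding was measured in these hearts.

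Signals are given as deposited, and those under 11, the 25th percentile of all values, were treated as a floor below which no order was read. Gzmb encodes granzyme B, which cleaves after aspartate and activates caspases and Bid. Its signal was 199.6, 272.8 and 2033.7 in rejecting arrays 1, 2 and 3, against 125.5, 167.8 and 165.5 in tolerizing arrays and 41.4, 49.6 and 70.5 in isografts at day 7. At day 70 it was 80.9, 52.8 and 51.3 in tolerizing allografts, against 36.2 and 23 in isografts. The 3 groups of day 7 did not overlap, and neither did the 2 groups of day 70. The highest signal, in rejecting array 3, stood far above the other arrays, and by mean the order was rejecting (835 ± 1038, SD, n = 3), tolerizing at day 7 (153 ± 23.8, n = 3), tolerizing at day 70 (61.7 ± 16.7, n = 3), isograft at day 7 (53.8 ± 15.0, n = 3) and isograft at day 70 (29.6 ± 9.33, n = 2). Of the neighbours in that order that were tested, none differed past the threshold.

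Gzma encodes granzyme A, which cleaves after basic residues. Its signal was 29.7, 39.6 and 151 in rejecting allografts, 46.4, 21.2 and 41.5 in tolerizing allografts and 20.8, 18 and 14.7 in isografts at day 7. At day 70 it was 22.9, 21.4 and 16.7 in tolerizing allografts, against 18.7 and 12.6 in isografts. Both allograft groups of day 7 lay above every isograft of that day, while the rejecting and tolerizing ranges overlapped. Prf1 encodes perforin, with signals of 41.7, 46.2 and 134.4 in rejecting allografts, 36.3, 15.3 and 19.8 in tolerizing allografts and 15.6, 7.4 and 17.9 in isografts at day 7. At day 70 the Prf1 signal was 21.6, 20.7 and 24.1 in tolerizing allografts, against 8.7 and 18.3 in isografts. Rejecting allografts stood above all others for Prf1, and tolerizing allografts and isografts overlapped at day 7. By mean, Gzma was 73.4 ± 67.4 in rejecting allografts, 36.4 ± 13.4 in tolerizing allografts and 17.8 ± 3.05 in isografts at day 7 (SD, n = 3 each). Prf1 averaged 74.1 ± 52.3 in rejecting allografts, 23.8 ± 11.1 in tolerizing allografts and 13.6 ± 5.52 in isografts at day 7.

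Ctsw encodes cathepsin W, a papain-like protease found mainly in cytotoxic lymphocytes. Its signal was 31.8, 31.2 and 141 in rejecting allografts, 59.8, 32.8 and 29 in tolerizing allografts and 6.5, 9.1 and 23.3 in isografts at day 7. At day 70 it was 46.7, 23.3 and 39.2 in tolerizing allografts, against 10.5 and 8.5 in isografts. All allografts of a day lay above the isografts of that day, and rejecting arrays 1 and 2 lay within the tolerizing range. Cst7 encodes cystatin F, the cysteine protease inhibitor named above, which myeloid cells make as well. Its signal was 96.7, 172.6 and 325.4 in rejecting allografts, 137, 68.1 and 80.2 in tolerizing allografts and 9.5, 11.6 and 8 in isografts at day 7. At day 70 it was 122.6, 88.4 and 74.6 in tolerizing allografts, against 7 and 5.2 in isografts. All 9 allografts stood far above all 5 isografts for Cst7, of which 1 alone was above the floor. This separation held for no other member, and for 2.65% of all probe sets tested. The tolerizing means of day 7 (95.1 ± 36.8) and day 70 (95.2 ± 24.7) lay side by side, below the rejecting mean of 198 ± 116 (SD, n = 3 each).

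Fasl encodes Fas ligand and was above the floor on 5 of 14 arrays, the fewest of the members. Its signal was 9.7, 50.2 and 87.3 in rejecting allografts, 34.5, 3.3 and 27.9 in tolerizing allografts and 2.6, 2.4 and 3 in isografts at day 7. At day 70 it was 50.5, 6.1 and 7.6 in tolerizing allografts, against 4.1 and 4.2 in isografts. No isograft had a measurable signal, and each allograft group held at least 1 array under the floor, so the order of those arrays is not known. Gzma and Gzmb were above the floor on all 14 arrays, Prf1 on 12, and Cst7 and Ctsw on 10 each.

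**Figure D1:**
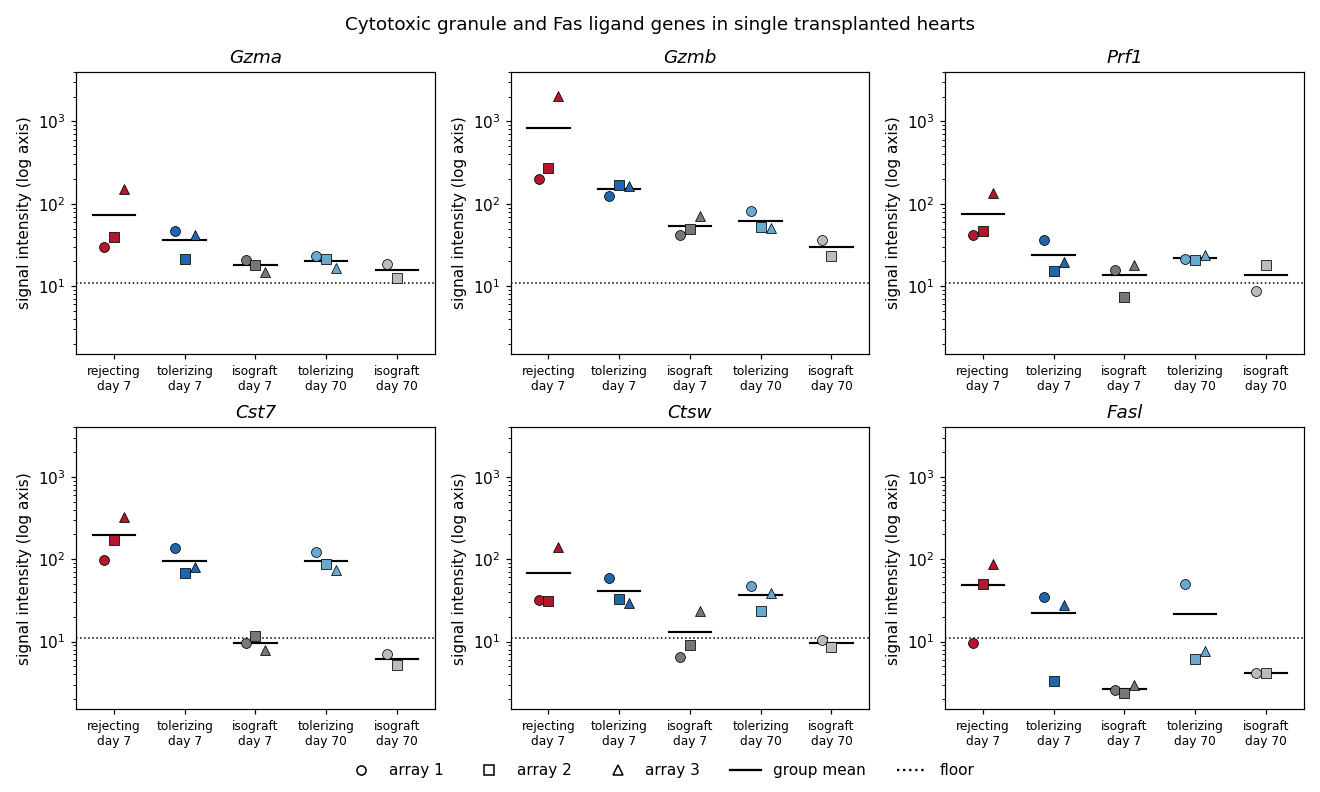
Signal intensity (log axis) of the 6 genes in every heart, by group, with array numbers as symbols, the group mean as a bar and the floor of 11 as a dotted line. Rejecting array 3 is the highest of all 14 arrays in every panel, and Cst7 separates the 9 allografts from the 5 isografts.

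In rejecting allografts against isografts at day 7, 5 of the 6 members rose (limma, adjusted p under 0.05 over all probe sets). Over all probe sets 8.54% were called higher in that comparison, and 17.7% in either direction. The median difference of the 6 members was 2.00 on the log2 scale, against 0.04 for all probe sets. For 5 members every rejecting array lay above every isograft, which held for 15.1% of all probe sets. In bulk tissue, fewer cells of a type and less RNA per cell cannot be told apart.

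Among the killing proteins, Gzmb had 9.15 times the isograft level in rejecting allografts (log2 difference 3.19, SE 0.63, adjusted p = 0.00364). Prf1 was 4.38-fold higher (log2 2.13, SE 0.44, adjusted p = 0.00475), and Gzma was 3.18-fold higher (log2 1.67, SE 0.51, adjusted p = 0.0346). Of the cathepsin and the cystatin, Cst7 showed the largest difference of the 6, 15.7-fold (log2 3.97, SE 0.40, adjusted p = 5.3e-05), and stood 25th of 10395 probe sets by p. Ctsw was 3.67-fold higher (log2 1.88, SE 0.54, adjusted p = 0.0282). Fasl did not pass, with a 3.31-fold difference of floored signals (log2 1.73, 95% interval 0.20 to 3.26, adjusted p = 0.12). All isografts and rejecting array 1 were under the floor for Fasl, so its fold is not a lower bound. These folds use signals set to the floor where lower, so those of Cst7, Prf1 and Ctsw, whose isografts lay partly under it, depend on its level.

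The calls of Gzmb, Prf1 and Cst7 held when any of the 6 arrays was left out, with adjusted p of at most 0.0182, 0.0249 and 0.0006. Those of Gzma and Ctsw did not: without rejecting array 3 the differences were 0.96 (adjusted p = 0.0789) and 1.16 (adjusted p = 0.0716). Leaving out isograft array 1, 2 or 3 also ended the Gzma call (adjusted p = 0.0665, 0.0825 and 0.105), and leaving out isograft array 1 or 2 ended the Ctsw call (adjusted p = 0.101 and 0.0979). Fasl passed without rejecting array 1 (log2 2.59, adjusted p = 0.0168), with the floor at the 10th percentile (log2 3.36, adjusted p = 0.029), with a pseudocount in place of the floor (log2 1.58, adjusted p = 0.0383) and with array weights (log2 1.86, adjusted p = 0.0315). With the floor at the 50th percentile, Prf1 differed by 0.63 (adjusted p = 0.319), Gzma by 0.62 (adjusted p = 0.395) and Ctsw by 0.59 (adjusted p = 0.421). With the 2 groups alone in the fit, adjusted p was 0.0623 for Gzmb, 0.154 for Gzma and 0.136 for Ctsw, and Cst7 passed under every alternative tried.

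In tolerizing allografts against isografts at day 7, 1 of the 6 members rose, Cst7, against 0.943% of all probe sets called higher. This comparison shares its isografts with the one above. Cst7 was 8.11-fold higher (log2 3.02, SE 0.40, adjusted p = 0.00132), with 2 of the 3 isografts set to the floor, and the difference was 3.24 with the floor at the 10th percentile. Its call ended with a floor at the 50th percentile (log2 1.14, adjusted p = 0.305), in the second accession run alone (log2 3.10, adjusted p = 0.0529) and with the beta-actin 3' to 5' ratio as a covariate (log2 2.67, adjusted p = 0.143). For 4 members, Gzma, Gzmb, Cst7 and Ctsw, every tolerizing array lay above every isograft, as for 9.15% of all probe sets. The differences that did not pass were 1.53 for Gzmb (95% interval 0.18 to 2.88, adjusted p = 0.315) and 1.44 for Ctsw (0.28 to 2.61, adjusted p = 0.259). They were 0.96 for Gzma (-0.12 to 2.05, adjusted p = 0.47), 0.61 for Prf1 (-0.34 to 1.56, adjusted p = 0.636) and 1.00 for Fasl (-0.53 to 2.53, adjusted p = 0.632). The median of the 6 was 1.22, against -0.02 for all probe sets.

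In rejecting against tolerizing allografts at day 7, which share donor and recipient strain and differ by the antibody, no member passed, against 0.529% of all probe sets called higher. At an unadjusted p under 0.05, 3 members (Gzmb, Prf1 and Cst7) passed, against 15.1% of all probe sets in either direction. All 6 differences were positive, with a median of 0.84 against 0.06 for all probe sets. Gzmb and Prf1 had every rejecting array above every tolerizing array, as did 8.6% of all probe sets. Gzmb differed by 1.66 (95% interval 0.31 to 3.02, adjusted p = 0.22), Prf1 by 1.52 (0.57 to 2.47, adjusted p = 0.109) and Cst7 by 0.95 (0.10 to 1.81, adjusted p = 0.268). Fasl differed by 0.73 (-0.80 to 2.26, adjusted p = 0.707), Gzma by 0.71 (-0.38 to 1.80, adjusted p = 0.576) and Ctsw by 0.43 (-0.74 to 1.60, adjusted p = 0.782). Weighting arrays by their spread around the group means in these same data gave calls for Prf1 (log2 1.32, adjusted p = 0.0167) and Cst7 (log2 0.99, adjusted p = 0.0383). The share of all probe sets called in either direction was 14.5% with these weights and 1.41% without them.

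At day 70, Cst7 was again the member that rose in tolerizing allografts against isografts, 1 of 6 members against 2.35% of all probe sets called higher. Both isografts lay under the floor, and the fold against that floor was at least 8.47 (log2 3.08, SE 0.44, adjusted p = 0.00162). Its call ended with the floor at the 50th percentile (log2 1.18, adjusted p = 0.292) and when the 2 groups alone entered the fit (adjusted p = 0.0513). For 4 members, Gzmb, Prf1, Cst7 and Ctsw, every tolerizing array lay above both isografts, as for 11.8% of all probe sets. Ctsw differed by 1.67 (95% interval 0.36 to 2.97, adjusted p = 0.187) and Gzmb by 1.06 (-0.45 to 2.58, adjusted p = 0.518). Fasl differed by 0.73 (-0.98 to 2.44, adjusted p = 0.728), Prf1 by 0.64 (-0.42 to 1.70, adjusted p = 0.594) and Gzma by 0.39 (-0.82 to 1.61, adjusted p = 0.809). The median of the 6 was 0.90, against -0.09 for all probe sets.

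**Figure D2:**
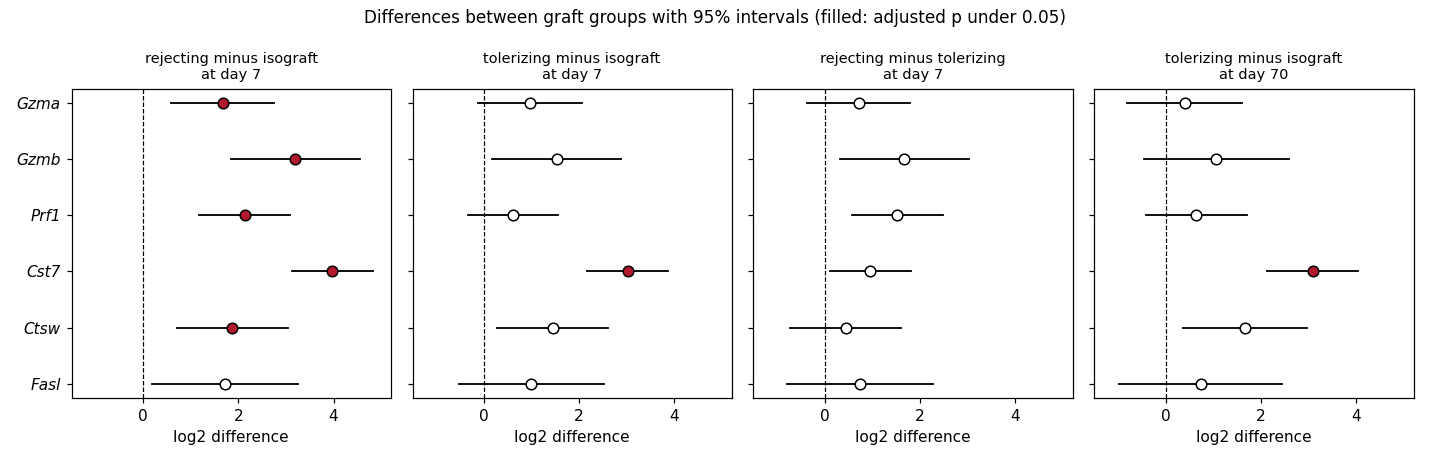
Log2 differences of the 6 genes in the 4 comparisons between graft types, with 95% intervals, filled where the adjusted p was under 0.05. Cst7 is filled in the 3 comparisons with isografts, the other filled points all lie in rejecting against isograft hearts, and none is filled in rejecting against tolerizing hearts.

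Over time no member passed in either graft type. In tolerizing allografts at day 70 against day 7, 0.0385% of all probe sets were called, and no member passed an unadjusted p of 0.05, against 6.2% of all probe sets. Gzmb was lower in every tolerizing array of day 70 than in any of day 7, as were 7.94% of all probe sets, with a difference of -1.33 (95% interval -2.68 to 0.02, adjusted p = 0.818). Gzma differed by -0.77 (-1.86 to 0.32, adjusted p = 0.932), with overlapping arrays. With the replicate number as a block, 12 in place of 4 probe sets passed in these hearts over time, and still no member. Cst7 differed by 0.04 (-0.81 to 0.89, adjusted p = 1) between the same groups. In isografts at day 70 against day 7, 0% of all probe sets were called, and no member passed an unadjusted p of 0.05, against 5.38% of all probe sets. Gzmb was lower in both isografts of day 70 than in the 3 of day 7, as were 9.17% of all probe sets, with a difference of -0.86 (-2.38 to 0.65, adjusted p = 0.982). The change over time in tolerizing allografts minus that in isografts gave no call among members or all probe sets, and 0 members and 3.93% of all probe sets had an unadjusted p under 0.05.

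Rejecting array 3 had the highest signal of the 3 rejecting arrays for all 6 members, as did 31.5% of all probe sets. It was also the highest of all 14 arrays for all 6, as were 11.5% of all probe sets. That array is the 1 rejecting heart of the first of 2 accession runs, which hold 5 and 9 arrays, so array and run cannot be told apart for rejecting hearts. The first run also holds tolerizing array 3 and isograft array 3 of day 7. For Gzmb the tolerizing signal of 165.5 lay within the range of its group, and the isograft signal of 70.5 was the highest of its group. For Ctsw the tolerizing signal of 29 was the lowest and the isograft signal of 23.3 the highest. Whether these values come from the run was not tested. What the runs stand for is unstated in the labels.

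Within the first run, rejecting minus isograft was 4.85 for Gzmb, 3.36 for Gzma, 2.91 for Prf1, 4.89 for Cst7, 2.60 for Ctsw and 2.99 for Fasl, each from 1 heart against 1. Within the second run it was 2.36 for Gzmb, 0.83 for Gzma, 1.74 for Prf1, 3.52 for Cst7, 1.52 for Ctsw and 1.09 for Fasl. Every member was thus higher in rejecting hearts within either run, by more in the first. Rejecting minus tolerizing at day 7 was 3.62 for Gzmb, 1.86 for Gzma, 2.76 for Prf1, 2.02 for Cst7, 2.28 for Ctsw and 1.65 for Fasl within the first run. Within the second run it was 0.69 for Gzmb, 0.13 for Gzma, 0.90 for Prf1, 0.42 for Cst7, -0.49 for Ctsw and 0.27 for Fasl, so Ctsw had the opposite sign there.

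Without rejecting array 3, 7.42% of all probe sets were called between rejecting and tolerizing hearts, against 1.41% with it, and still no member was. The difference was then 0.62 for Gzmb (adjusted p = 0.267), 0.98 for Prf1 (adjusted p = 0.137) and 0.51 for Cst7 (adjusted p = 0.432). It was 0.10 for Fasl (adjusted p = 0.958), -0.01 for Gzma (adjusted p = 1) and -0.29 for Ctsw (adjusted p = 0.73). Against isografts, Gzmb (2.15, adjusted p = 0.000567), Prf1 (1.59, adjusted p = 0.00907) and Cst7 (3.53, adjusted p = 5.4e-05) passed without that array. Fasl did not, at 1.09 (adjusted p = 0.316).

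**Figure D3:**
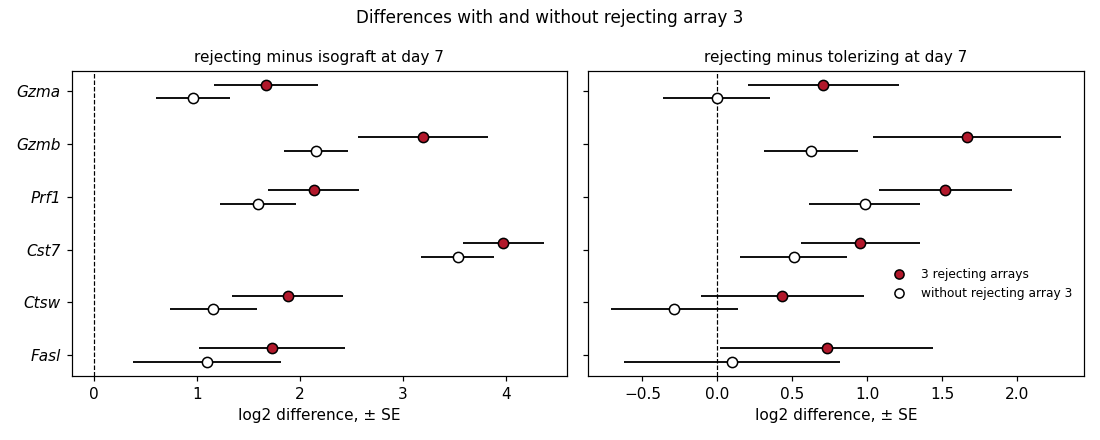
Log2 differences of the 6 genes with their standard errors, with all 3 rejecting arrays (filled) and without rejecting array 3 (open), against isografts on the left and tolerizing allografts on the right. Every difference is smaller without that array, and on the right Gzma and Ctsw lie at -0.01 and -0.29.

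The listed markers of cell types were summed per array to place rejecting array 3. The CD8 T cell list also holds genes shared with other lymphocytes, such as Cd3d and Cd2. Its sum for the CD8 T cell markers was 1735.5, against 293.4 and 703.8 in rejecting arrays 1 and 2, and its NK cell sum was 1188.2, against 577.4 and 763.3. Its cardiomyocyte sum was 15390.8, against 3214 and 4616.6 in the other 2 rejecting arrays. Its neutrophil sum was the lowest of the 3, 783.3 against 3364.8 and 1383.3, and so was its macrophage sum, 4027.1 against 4655.9 and 4827.7. Its B cell sum was the lowest of the 3 as well, 135.4 against 355.8 and 171.1. Its CD4 T cell sum was the highest, 385.3 against 141 and 126.9, with 299.6 of it from Ctla4. Cd4 itself was lowest there, 66.5 against 91.8 and 72.3. Array 3 thus had the highest CD8 T, CD4 T, NK, member and heart muscle sums of the 3 rejecting arrays. Its neutrophil, macrophage and B cell sums were the lowest. Single genes could differ from their sum. Fcgr1 of the macrophage list had 657.6 in array 3 against 614.3 in array 1. Cd79b of the B cell list had 28.5 against 25.2 in array 2. Cd244a of the NK cell list was lowest in array 3, with 41.4 against 55.6 and 59.6 in arrays 1 and 2. The part of cell composition in the member values was not tested.

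**Figure D4:**
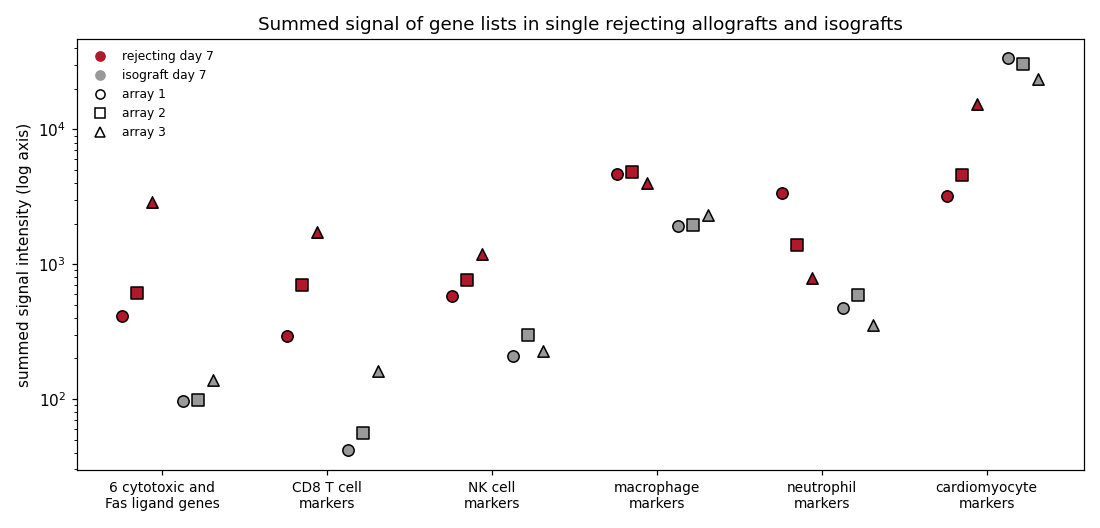
Summed signal (log axis) of the 6 genes and of 5 marker lists in single hearts, rejecting allografts left of isografts at day 7, with array numbers as symbols. Rejecting array 3 is highest of the rejecting hearts for the 6 genes, CD8 T cell, NK cell and cardiomyocyte markers and lowest for neutrophil and macrophage markers.

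The summed signal of the 6 members was 409 to 2873 in rejecting allografts, 308 to 440 in tolerizing allografts and 96.4 to 137 in isografts at day 7. The CD8 T cell markers summed to 293 to 1736 in rejecting, 288 to 675 in tolerizing and 41.5 to 162 in isograft hearts of day 7, with 5 of 7 tested higher in rejecting against isograft hearts (Cd8a, Cd8b1, Cd3d, Cd3g and Cd2). Of these, Cd8a and Cd8b1 alone encode the CD8 coreceptor. Over all probe sets 8.54% were called higher in rejecting against isograft hearts. The NK cell markers summed to 577 to 1188 in rejecting, 387 to 656 in tolerizing and 208 to 299 in isograft hearts, with 5 of 8 higher (Klrb1b, Klrd1, Klrk1, Klrc1 and Cd244a). Ncr1, a receptor that defines NK cells, was under the floor on all 14 arrays. CD4 T cell markers summed to 127 to 385 in rejecting, 66.0 to 71.6 in tolerizing and 45.9 to 59.6 in isograft hearts, with both tested genes, Cd4 and Ctla4, higher, and Cd40lg under the floor on all arrays.

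Macrophage markers summed to 4027 to 4828 in rejecting, 2560 to 3492 in tolerizing and 1907 to 2301 in isograft hearts of day 7, with 5 of 7 higher and 1, Mrc1, lower in rejecting against isograft hearts. Neutrophil markers summed to 783 to 3365 in rejecting, 368 to 849 in tolerizing and 354 to 592 in isograft hearts, with 2 of 6 higher (S100a8 and S100a9). Mast cells carry granule proteases of their own, and their markers summed to 149 to 224 in rejecting, 140 to 204 in tolerizing and 152 to 241 in isograft hearts, with 0 of 5 tested called and Mcpt4 and Tpsab1 under the floor on all arrays. B cell markers summed to 135 to 356 in rejecting, 97.5 to 158 in tolerizing and 134 to 218 in isograft hearts, with 0 of 3 called. Cardiomyocyte markers, measured in every group of these hearts, summed to 3214 to 15391 in rejecting, 14828 to 22806 in tolerizing and 23753 to 33648 in isograft hearts, with 7 of 7 lower. At day 70 the CD8 T cell sum was 216 to 643 in tolerizing allografts against 49.8 to 66.2 in isografts, the NK cell sum 305 to 590 against 222 to 242 and the macrophage sum 2473 to 3443 against 675 to 1670. In tolerizing against isograft hearts the marker lists held calls for Cd8a and Cd8b1 at day 7 and for Cd8b1, Csf1r and Lyz2 at day 70, all higher. No list other than the CD4 T cell markers held a call in rejecting against tolerizing hearts at day 7.

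Among the T and NK cell markers, Cd8a, the chain of the CD8 coreceptor, had signals of 70, 216.4 and 466 in rejecting allografts, 159.7, 61.8 and 73.7 in tolerizing allografts and 2.5, 3.9 and 15.4 in isografts at day 7. It was 15.6-fold higher in rejecting against isograft hearts (log2 3.96, SE 0.57, adjusted p = 0.000663) and 7.31-fold higher in tolerizing against isograft hearts of day 7 (log2 2.87, adjusted p = 0.0224). As 2 of the 3 isografts were set to the floor, these folds depend on its level, and a floor at the 10th percentile gave differences of 5.03 and 3.93. The call in tolerizing hearts ended without tolerizing array 1 or 3 or isograft array 1 or 2 (adjusted p up to 0.124), and that of Cd8b1 at either day ended for 5 of 6 and 3 of 5 arrays left out (adjusted p up to 0.15 at day 7 and 0.242 at day 70). Klrd1, the CD94 chain of inhibitory and activating receptors, had 103.6, 235.7 and 455.6 in rejecting allografts, 162.3, 68.5 and 104.8 in tolerizing allografts and 17.2, 26.7 and 29.7 in isografts at day 7. It was 9.34-fold higher in rejecting against isograft hearts (log2 3.22, SE 0.53, adjusted p = 0.00133). Klrc1, its NKG2A partner, was 3.41-fold higher (log2 1.77, adjusted p = 0.0028) and Klrb1b, an inhibitory NK receptor, 3.63-fold higher (log2 1.86, adjusted p = 0.00236). Cytotoxic T cells as well as NK cells can carry these receptors. The call of Klrk1 ended without isograft array 1 or 3 or rejecting array 2 or 3 (adjusted p up to 0.0871), and that of Cd244a without isograft array 3 (adjusted p = 0.0533).

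Of the other granule genes, 8 of 12 on the array were tested and 3 rose in rejecting against isograft hearts at day 7, with a median of 0.36. Over all probe sets 8.54% were called higher there. Ctsc, the cathepsin C that activates granzymes and is also common in myeloid cells, had signals of 753.7, 1138.7 and 1228.7 in rejecting allografts, against 165.8, 162.7 and 256 in isografts (5.34-fold, log2 2.42, SE 0.42, adjusted p = 0.00181). Srgn, the serglycin core to which granule proteins bind, was 3.00-fold higher (log2 1.59, SE 0.28, adjusted p = 0.00217). Unlike the 6 members, Srgn was lowest rather than highest in rejecting array 3, with 223.4, 197.2 and 137.4 in arrays 1, 2 and 3. Stxbp2, which serves granule fusion, was 3.08-fold higher (log2 1.62, adjusted p = 0.0116), a call that ended without isograft array 2 (adjusted p = 0.0561). The other granzymes gave little signal: Gzmd was under the floor on all 14 arrays, Gzmc, Gzmf and Gzmk were above it on 2 arrays each and were not tested, and neither Gzmg nor Gzmm passed in any comparison. In tolerizing against isograft hearts, 0 of 8 passed at day 7 and 1 at day 70, Ctsc (log2 2.16, adjusted p = 0.0233). That call ended without isograft array 1 or tolerizing array 1 or 3 (adjusted p up to 0.309).

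Serpinb9, the intracellular inhibitor of granzyme B that protects cells from their own and their neighbours' granzymes, was the called gene among 3 tested granzyme inhibitors. It had signals of 302.6, 455.7 and 795.1 in rejecting allografts, 484.8, 420.7 and 492.9 in tolerizing allografts and 171, 109.8 and 174.8 in isografts at day 7. At day 70 it had 344.6, 362.5 and 406.9 in tolerizing allografts, against 134.4 and 95.4 in isografts. All 9 allografts lay above all 5 isografts, as for 2.65% of all probe sets tested. The difference against isografts was 1.69 in rejecting hearts (SE 0.29, adjusted p = 0.00179), 1.65 in tolerizing hearts of day 7 (SE 0.29, adjusted p = 0.0109) and 1.71 in those of day 70 (SE 0.33, adjusted p = 0.0109). The call at day 7 in tolerizing hearts ended without tolerizing array 1 or 3 or isograft array 2 (adjusted p up to 0.0646), and that at day 70 without either isograft (adjusted p up to 0.0856).

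On the Fas side, 2 of 8 tested genes of the death receptor pathway rose in rejecting against isograft hearts, against 8.54% of all probe sets. The median of the 8 was 0.09. Bid, which carries the caspase-8 and granzyme B signal to mitochondria, was 2.63-fold higher (log2 1.39, SE 0.31, adjusted p = 0.00771). Casp8, the first caspase after Fas, was 2.15-fold higher (log2 1.11, adjusted p = 0.0328), a call that ended without rejecting array 2 or 3 or isograft array 2 or 3 (adjusted p up to 0.141). Fas itself did not pass in any comparison, and no gene of this list passed in the other comparisons.

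Of the regulators of effector lymphocytes, 3 of 7 tested genes rose in rejecting against isograft hearts, against 8.54% of all probe sets. The median of the 7 was 0.76. Irf1, an interferon-induced transcription factor, had signals of 526.2, 798.9 and 1064.7 in rejecting allografts, against 164, 180.4 and 276.9 in isografts (log2 1.92, SE 0.26, adjusted p = 0.000436). It also rose in tolerizing against isograft hearts at day 7 (log2 1.72, SE 0.26, adjusted p = 0.00324) and day 70 (log2 1.90, SE 0.29, adjusted p = 0.00249), where the call at day 70 ended without isograft array 1 (adjusted p = 0.0524). The call at day 7 ended with the 2 groups alone in the fit (adjusted p = 0.0506) and with the beta-actin covariate (adjusted p = 0.254). Prdm1, which encodes the transcriptional repressor Blimp-1, was 2.84-fold higher in rejecting against isograft hearts (log2 1.51, adjusted p = 0.00654). Of its isografts, 2 of the 3 were at the floor. Id2, an inhibitor of E proteins, was 2.44-fold higher there (log2 1.29, adjusted p = 0.0145), a call that ended without isograft array 1 (adjusted p = 0.0702). Id2 also passed in tolerizing against isograft hearts at day 70 (log2 1.59, adjusted p = 0.0305), but not without either isograft or tolerizing array 1 or 2 (adjusted p up to 0.29).

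Of 8 cytokines and chemokines that such cells release, 5 rose in rejecting against isograft hearts, against 8.54% of all probe sets. The median of the 8 was 1.83. Ccl5, a T cell attracting chemokine stored by cytotoxic cells, had signals of 898.1, 1239.8 and 1704.2 in rejecting allografts, 643, 296.8 and 522.7 in tolerizing allografts and 7.3, 46.9 and 153 in isografts at day 7. Its difference against isografts was 4.85 in rejecting hearts (SE 0.72, adjusted p = 0.000798). Ccl3, another chemokine, differed by 2.49 (adjusted p = 0.00113), and Ifng, the effector cytokine interferon gamma, was at least 3.75-fold higher (log2 1.91, adjusted p = 0.0112). Ccl4 differed by 2.49 (adjusted p = 0.0214) and lost its call without rejecting array 2 or 3 or isograft array 1 or 3 (adjusted p up to 0.0785). Xcl1 differed by 1.76 (adjusted p = 0.0415) and lost its call without rejecting array 3 or isograft array 1, 2 or 3 (adjusted p up to 0.158). In tolerizing against isograft hearts at day 7, Ccl5 differed by 3.44 (adjusted p = 0.0285) and Xcl1 by 2.68 (adjusted p = 0.026), and at day 70 Ccl5 differed by 4.59 (adjusted p = 0.00657). At day 7 the Ccl5 call ended without tolerizing array 1 or 3 or isograft array 1 or 2, and the Xcl1 call without tolerizing array 1 or 3 or isograft array 1, 2 or 3 (adjusted p up to 0.142 for each). At day 70 the Ccl5 call ended without isograft array 1 (adjusted p = 0.135).

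Other settings ended further calls of the listed genes. Of 25 such genes followed in rejecting against isograft hearts, 12 lost their call with the floor at the 50th percentile, among them Ifng, Bid, Prdm1, Cd8b1, Klrk1 and Cd244a (adjusted p of the 12 from 0.0678). In the second run alone 8 lost it, among them Ifng, Bid and Cd244a, and with the 2 groups alone in the fit 7 did, among them Ifng, Id2 and Cd3d. With the beta-actin covariate 6 did, among them Ifng, Cd2 and Klrk1. The share of all probe sets called, 17.7% without these changes, was 14.1%, 16%, 11.1% and 14% under these settings, in that order. In tolerizing against isograft hearts at day 7, all 6 listed genes called, Cd8a, Cd8b1, Ccl5, Xcl1, Irf1 and Serpinb9, lost their call with the beta-actin covariate (adjusted p 0.254 to 0.468). With it 0.077% of all probe sets were called, against 1.69% without it, so most calls of any gene ended. At day 70, 5 of the 6 followed lost their call with the 2 groups alone in the fit, Ccl5, Cd8b1, Ctsc, Id2 and Serpinb9 (adjusted p 0.0662 to 0.295). Over all probe sets 0.356% were called in that fit, against 3.2% with all groups.

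The members were compared with each other and with 7360 genes by Pearson's r of log2 signal over the 14 arrays, as a description, since arrays share group, run and cell content. Between pairs of members r was 0.73 to 0.92 over all arrays. As deviations from group means it was 0.56 to 0.89, with a median of 0.72, and without the rejecting arrays it was -0.39 to 0.81, with a median of 0.34. The members thus varied together less closely among the remaining hearts. The gene most like the mean of the 6 was Cd8a (r = 0.96), followed by Hmgb2 (0.96) and Trbv1 (0.95).

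Single members differed in their closest genes. Gzmb was most like Klrc1 (r = 0.95) and Pclaf (0.93), and Gzma most like Sla (0.95) and Dtl (0.93). Prf1 was most like Gng2 (0.94) and Pdk3 (0.94), and Ctsw most like Trbv1 (0.96), Lrmp (0.95) and Cd3d (0.95). Cst7 was most like Ubd (0.98), Napsa (0.98) and Irf1 (0.97), with Cd8a at 0.97. Fasl, with 9 arrays at the floor, was most like Klra2 (0.94) and Traf1 (0.92).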

How the data were processed

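Signal intensity from 14 MG-U74Av2 arrays, 1 per transplanted mouse heart, was used on a linear scale as the authors deposited it; software and scaling: not given in the sources used here. The deposited values had a mean of 100.06 to 100.07 per array without the lowest and highest 2%, a median of 38.2 to 45.65 and no negative value. They were not scaled further. Scanner files were not analysed here. The precision is limited by the number of arrays.

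Gene names came from the array's annotation and were brought up to date with RefSeq gene IDs: 10833 had 1 gene, 396 several and 1193 none. After 66 controls of 12488 probe sets were left out, signals under the floor of 11 (25th percentile) were set to it and log2 was taken. Those exceeding the floor on 3 or more arrays were tested in 1 fit of all 5 groups with limma 3.58.1 in R 4.3.3 (eBayes with an intensity trend, 9 residual and 4.45 prior degrees of freedom), with two-sided p-values adjusted by Benjamini-Hochberg over 10395 probe sets and called under 0.05. The fit gave 6 contrasts between 2 groups and 1 interaction. A gene on more than 1 probe set was read from its brightest. Counts of groups without overlap used the floored signals.

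All 6 members were named, as were at most 4 genes of each list, by smallest p in rejecting against isograft hearts, any gene a count of 5 or fewer needed, and the genes most like the members. The lists were other granule genes, granzyme inhibitors, the death receptor pathway, effector regulators, effector cytokines and markers of CD8 T, CD4 T, NK, mast, macrophage, B, neutrophil and heart muscle cells. The members and lists were chosen with earlier results of these data known.

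On simulated data with 10395 probe sets, the share of changes called was 54% at log2 1 and 97% at log2 2 in the comparison of rejecting with isograft hearts. With tolerizing hearts in place of isografts it was 53% and 96%. For tolerizing hearts with isografts it was 51% and 90% (day 7) or 39% and 85% (day 70). Whether these shares hold for the members, or for signals at the floor, was not tested. Of 16 pairs of arrays that share a number, 8 deviated together at r above 0.1 (range -0.18 to 0.34). The numbers paired the arrays, by the rule of every pair above 0.1, only between tolerizing hearts of day 70 and day 7 (r = 0.27, 0.34 and 0.25). Alternatives were other scalings, floors and filters, a pseudocount of 16, no intensity trend, array weights, blocks for replicate number or run, the second run alone, the compared groups alone, the beta-actin 3' to 5' ratio as a covariate, and leaving out each array.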

Additional observations from a re-analysis of the deposited data

How the results depend on the processing

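In rejecting against isograft hearts at day 7 the 5 members called became 2 with the floor at the 50th percentile or with the compared groups alone, and 3 without a filter, in the second run alone or when the beta-actin ratio entered as covariate. The share of all probe sets called, 17.7% without these changes, was then 14.1%, 11.1%, 13.3%, 16% and 14%, in that order. Leaving out 1 array gave 3 to 6 calls, with 3 without rejecting array 3, isograft array 1 or isograft array 2. In tolerizing against isograft hearts at day 7 the 1 member called became 0 with the floor at the 50th percentile, in the second run alone or with the beta-actin covariate, and 2 with array weights, which added Gzmb. The share of all probe sets called, 1.69% without these changes, was then 1.06%, 0.385%, 0.077% and 3.5%, in that order. In rejecting against tolerizing hearts array weights gave 2 where 0 passed, with 14.5% of all probe sets called against 1.41%. At day 70 the 1 member called became 0 with the floor at the 50th percentile or the compared groups alone. The share of all probe sets called, 3.2% without these changes, was then 2.42% and 0.356%. The beta-actin ratio was 1.26 to 1.60 in rejecting hearts, 1.09 to 1.37 in tolerizing hearts and 1.52 to 1.98 in isografts at day 7. With the replicate block 5, 1, 0 and 1 members passed in these 4 comparisons, and it changed no call of a member; of listed genes, Id2 and Cd8b1 lost theirs at day 70 (adjusted p = 0.0562 and 0.0653). Of 529 values of members under an alternative, 491 kept direction and side of the threshold, 26 lost a call, 7 gained one and 5 turned direction; of 753 values of listed genes, 604 kept both and 149 lost a call. Turned were Prf1 in tolerizing against isograft hearts at day 7 with the beta-actin covariate (-0.19), and, in rejecting against tolerizing hearts, Gzma without rejecting array 3 (-0.006, with 1.17 at most when another array was left out) and Ctsw with array weights (-0.032), in the second run alone (-0.49) and without rejecting array 3 (-0.288, with 0.80 at most when another array was left out); none of these was called. The cause was not tested. A mean over several probe sets was not run, as each member had 1. Dim signal limits Fasl, with 9 of 14 arrays at the floor.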

Other observations

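Ctla4, which binds the same CD80 and CD86 ligands that the antibodies block, was the one gene of the cell type and pathway lists that passed in rejecting against tolerizing hearts at day 7 (log2 2.75, SE 0.62, adjusted p = 0.0459, limma). Its signal was 41.4, 45.6 and 299.6 in rejecting allografts, against 2.4, 10.2 and 15.2 in tolerizing allografts of day 7. In tolerizing allografts of day 70 it was 57.8, 16.8 and 24.6, and in isografts it was under the floor on every array. As with the 6 cytotoxic genes, rejecting array 3 was the highest of the 14 arrays. The call ended without tolerizing array 1, 2 or 3 or without rejecting array 2 (adjusted p up to 0.19). Of 20 alternatives tried, these included, 13 ended the call of Ctla4. Among them were quantile normalization (adjusted p = 0.0649), median scaling (0.0742) and the second run alone (0.111). Over all alternatives its adjusted p was 0.00489 to 0.574.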
